A study of Homo sapiens with 4 samples.

Results

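The BCL2 family decides whether the outer membrane of the mitochondrion stays sealed or is opened during apoptosis. This account covers 10 of its genes, taken as every gene probe whose name on the array equals BCL2, BCL2L1, MCL1, BAX, BAK1, BBC3, PMAIP1, BCL2L11, BID or BIK. They were read by 15 probes, among 58201 gene probes that carry 43317 gene names in all. Gene expression was measured on 1-colour microarrays in HCT116, a human colorectal cancer line, and in A549, a human lung cancer line. Each line received, with the reagent Dharmafect1, either miR-891b, a microRNA, or the control RNA NC1, which makes 4 groups of 1 array each. The growth protocol lists the media McCoy's 5A and DMEM for the lines, in the order HCT116 and A549. The dose of the RNAs and the time of harvest are not given in the sources used here. The series is about PSAT1, an enzyme of serine synthesis, and the vesicles that cancer cells release.

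The family has 3 kinds of protein. Guardians (here BCL2, BCL2L1 and MCL1) bind and hold back the others, effectors (BAX and BAK1) form the pores that let cytochrome c out, and BH3-only proteins (BBC3, PMAIP1, BCL2L11, BID and BIK) either occupy the guardians or activate the effectors directly. BBC3, PMAIP1 and BAX are classically induced by DNA damage. In epithelial tumour cells the balance between the guardians and the BH3-only proteins sets how readily a stress leads to death, and much of it is set after transcription, so that mRNA gives only part of the picture.

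The agent that separates the groups is a microRNA, which acts mainly through the seed at its 5′ end. The mature form is shown because the seed determines which transcripts it can pair with. It comes from RefSeq (GRCh38.p14, chrX:146001100-146001121, minus strand), with the seed, bases 2 to 8, in capitals.
hsa-miR-891b: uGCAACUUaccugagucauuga
The DNA letters that pair with those bases are AAGTTGC. They were looked for in the probe sequences, read in the sense direction of the transcript only. None of the 15 probes of these genes holds them, against 229 of all 58201 probes (0.393%). A probe spans 60 bases, so this says only that the letters are not in those windows, and the rest of the transcripts was not analysed here.

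Parts of 4 probes are shown because the BCL2 result depends on which probe is read, PMAIP1 had the largest HCT116 change, and BCL2L11 was read in several transcript variants. Each line gives 30 bases of the 60-base probe, 5′ to 3′ in the sense of the transcript, and capitals mark the hexamer AATAAA, the common signal for adding the poly(A) tail.
BCL2 transcript variant alpha (NM_000633), hg19 chr18:60790723-60790782, minus strand: tggctgatattctgcaacactgtacacata
PMAIP1 (NM_021127), hg19 chr18:57570691-57570750, plus strand: aacattcaatatAATAAAagaacatgggga
BCL2L11 transcript variant 1 (NM_138621), hg19 chr2:111925892-111925951, plus strand: acttgtgttttgcactgatgaattttgaca
BCL2L11 transcript variant 9 (NM_207002), hg19 chr2:111886352-111886411, plus strand: tatggtcattggtgattaAATAAAatgtat
The hexamer is in 2 of the 15 probes and in 4567 of all 58201 probes (7.85%), searched in the sense direction of the transcript. The second BCL2 probe, for variant beta (NM_000657), lies far from the one shown and reads another stretch of the gene's transcripts. Whether each lies in coding sequence or in an untranslated region was not analysed here, since no annotation of hg19 was used.

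Levels below are log2 signal relative to the 75th percentile of the array, and a change is the miR-891b level minus the NC1 level of the same line. Each value rests on 1 array, so a change within a line has no replicate check and no p-value. The ± beside a change is the error that the scanner software assigns to it, which is at least 10% of each signal and comes to about 0.20 for a bright probe. It covers the spots, not the cultures. The median SD of a change over repeated spots was 0.061 in HCT116 (276 probes) and 0.071 in A549 (287 probes). Both arrays of a line shared a slide and a scan, so line and slide cannot be told apart. Fewer cells of a kind and less RNA per cell cannot be told apart in these bulk samples either. Between 44.7% and 50.3% of gene probes were well above background per array, and no gene spot was saturated. Areas of stray signal held 10.5% of gene spots on HCT116 miR-891b, against 2.20% or less on the other arrays. Of the markers listed for A549, 6 of 7 tested were higher in A549 with a limma adjusted p under 0.05 and SFTA1P was lower. Of those listed for HCT116, 4 of 7 tested were lower in A549, ELF3 and LGALS4 were higher there, CDH1 did not pass, and GPA33 stayed at background on all 4. Of the fibroblast, endothelial and blood markers, COL1A1, CDH5 and PTPRC were well above background on all 4 arrays, while COL1A2, COL3A1, DCN and PECAM1 were at background on all 4.

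With miR-891b, the member that stood out was PMAIP1 (NOXA), a BH3-only protein that binds MCL1 and promotes its degradation. It was 2.76-fold higher in HCT116, and no other member was past 2-fold in HCT116 by the probe that represents its gene (the probe with the highest mean level). In A549 no member was past 2-fold by that probe. There, BID and BCL2L1 were lower and BBC3 and BAK1 were higher by 1.64-fold to 1.81-fold. At least 2-fold higher genes made up 1.16% of 19105 genes measured in HCT116, and 1 of the 10 members was among them. At least 2-fold lower genes made up 0.843% and included 0 members. In A549 the background was 4.0% higher and 5.57% lower among 21335 genes, with 0 members in either direction.

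**Figure D1:**
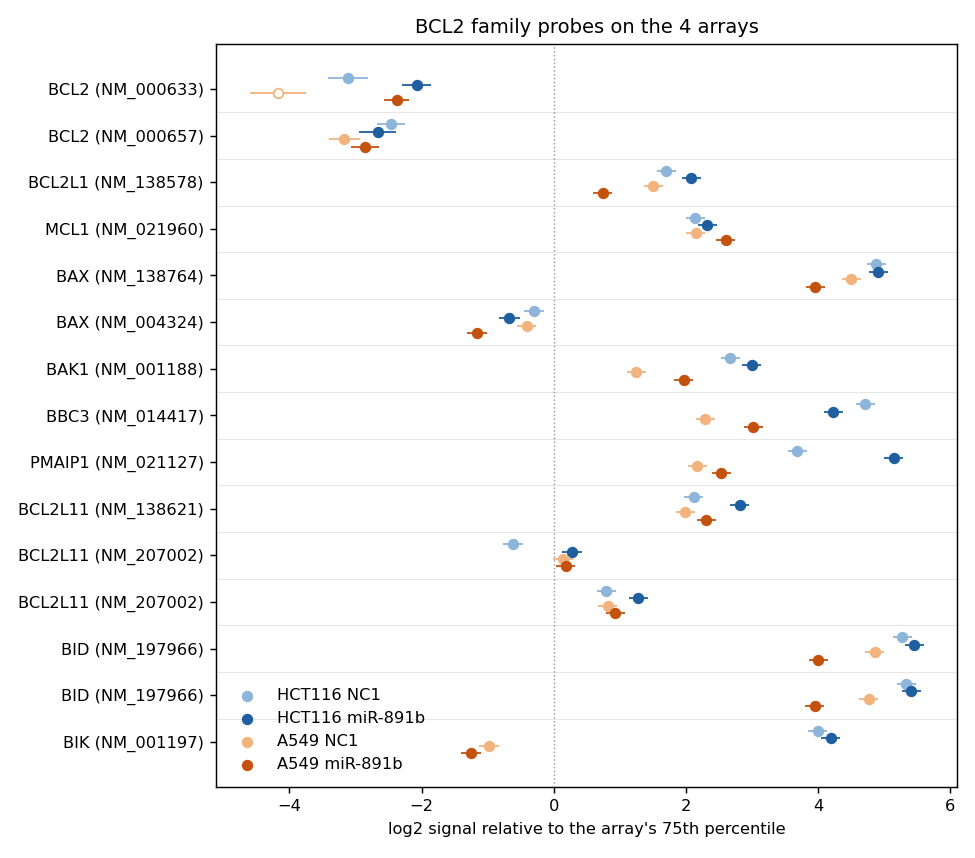
Log2 signal relative to the array's 75th percentile (horizontal axis) for the 15 probes of the BCL2 family genes, with the RefSeq transcript each was designed to, on the 4 arrays. Bars are the scanner software's error of the spot and the open circle is a value not well above background (BCL2 variant alpha on A549 NC1, -4.17). BIK lies near 4 on both HCT116 arrays and below -0.9 on both A549 arrays.

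Among the guardians, BCL2 was the dimmest. By the probe for variant beta, its level was -2.46 in HCT116 NC1, -2.66 in HCT116 miR-891b, -3.17 in A549 NC1 and -2.85 in A549 miR-891b. The changes were -0.20 ± 0.35 in HCT116 and 0.31 ± 0.32 in A549, each within its spot error. The probe for variant alpha gave a different picture. It read -3.12 and -2.07 in HCT116, a change of 1.04 ± 0.37. In A549 it was not well above background with NC1 (-4.17) and reached -2.38 with miR-891b, a change of 1.79 ± 0.46. The miR-891b signal was 2.99-fold above the dimmest signal that counted as well above background on the NC1 array. That signal came from another probe, so 2.99-fold is no lower bound for this one. BCL2 is the founding guardian of the family, and its call thus depends on the stretch of transcript that is read. The intensity of the alpha probe was 6.33 and 13.5 in HCT116 and 4.16 and 14.3 in A549, against 54.9 to 74.8 at the 75th percentile of the arrays. With normexp background correction and quantile normalization, the widest gap between the changes of these probes shrank from 1.24 to 0.27 in HCT116 and from 1.48 to 0.15 in A549.

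BCL2L1 encodes BCL-XL, a guardian that restrains BAX and BAK1. Its level was 1.71 with NC1 and 2.08 with miR-891b in HCT116, and 1.51 and 0.75 in A549. The A549 miR-891b array was thus the lowest of the 4. The change was 0.37 ± 0.20 in HCT116 and -0.77 ± 0.20 in A549, where it corresponds to a 1.70-fold lower signal. Of all genes measured in A549, 17.0% differed by at least as much in size. The BCL2L1 spot lay in an area of stray signal on HCT116 miR-891b, where 14.4% of nearby spots that were dim elsewhere were well above background. The part of the stray signal in the HCT116 value was not tested.

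MCL1, a short-lived guardian, was at 2.15 and 2.33 in HCT116 and at 2.15 and 2.60 in A549. The NC1 levels of the lines differed by 0.0047. Its changes of 0.18 ± 0.20 and 0.45 ± 0.20 had the same sign, and 54.2% of genes in HCT116 and 36.6% in A549 differed by at least as much. The MCL1 spot was in an area of stray signal on HCT116 NC1 (15.4% of nearby dim spots).

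Of the effectors, BAX was measured most precisely, by 10 spots of 1 probe (variant sigma, hg19 chr19:49464904-49464963). Over those spots the level in HCT116 NC1 ran from 4.53 to 4.99 with a median of 4.92, and in HCT116 miR-891b from 4.81 to 4.96, also with a median of 4.92. In A549 NC1 it ran from 4.44 to 4.55 with a median of 4.51, and in A549 miR-891b from 3.86 to 4.05 with a median of 3.96. The HCT116 arrays overlapped, while the A549 arrays did not. The change per spot was 0.027 ± 0.094 (SD over 10 spots of 1 array pair) in HCT116 and -0.55 ± 0.056 in A549, with 10 of 10 spots lower. These SDs cover spots only. In A549, 29.1% of measured genes differed by at least as much in size. A second BAX probe, for variant beta, was at -0.30 and -0.67 in HCT116 and at -0.41 and -1.16 in A549. Its changes were -0.37 ± 0.21 and -0.76 ± 0.21, so both probes were lower in A549 and they differed in sign in HCT116.

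**Figure D2:**
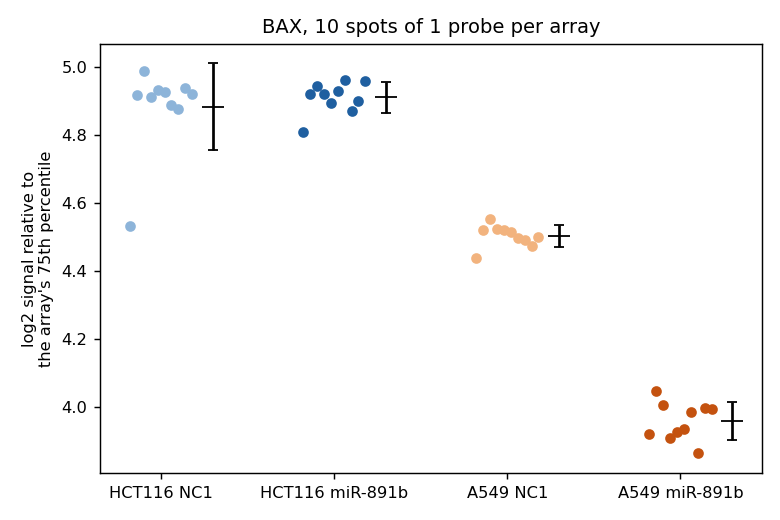
Log2 signal relative to the array's 75th percentile (vertical axis) for each of the 10 spots of the BAX probe on the 4 arrays, with the mean and SD over spots beside them. The A549 miR-891b spots (3.86 to 4.05) all lie below the A549 NC1 spots (4.44 to 4.55), and the HCT116 arrays overlap, with 1 low spot at 4.53 on HCT116 NC1.

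BAK1, the effector that resides on mitochondria in healthy cells, was at 2.67 and 2.99 in HCT116 and at 1.25 and 1.96 in A549. It was higher with miR-891b in both lines, by 0.32 ± 0.20 and 0.72 ± 0.20. Both HCT116 arrays were above both A549 arrays. In A549 the effectors thus differed in direction, with BAX 1.46-fold lower and BAK1 1.64-fold higher.

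By the probe that represents each gene, the largest change of the members was in a BH3-only gene. PMAIP1 gave an intensity of 706 in HCT116 NC1, 2022 in HCT116 miR-891b, 338 in A549 NC1 and 431 in A549 miR-891b. As levels these were 3.69, 5.15, 2.18 and 2.54. The HCT116 miR-891b array was the highest and the A549 arrays the lowest. The change was 1.46 ± 0.20 in HCT116, a size that 0.602% of measured genes matched or exceeded, and 0.36 ± 0.20 in A549, which 45.4% did. The spot lay outside areas of stray signal on all 4 arrays, and 0.541% of nearby dim spots were bright on HCT116 miR-891b. Over the settings tried the HCT116 change stayed between 1.38 and 1.5. Several of those settings could not move it, since PMAIP1 has 1 probe with 1 spot that carries no outlier mark.

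BBC3 (PUMA), a BH3-only protein that can neutralise every guardian, was at 4.71 and 4.23 in HCT116 and at 2.29 and 3.02 in A549. It was lower with miR-891b in HCT116, by a change of -0.48 ± 0.20, and higher in A549, by 0.73 ± 0.20. Of all measured genes, 14.8% in HCT116 and 18.5% in A549 differed as much in size. Despite these opposite changes, both HCT116 levels stayed above both A549 levels.

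BCL2L11 (BIM), an activator of BAX and BAK1 with several spliced forms, was read by 3 probes. The probe for variant 1 was at 2.12 and 2.81 in HCT116 and at 1.99 and 2.31 in A549. The changes were 0.69 ± 0.20 and 0.32 ± 0.20. The probe for variant 9 that holds the AATAAA hexamer was at -0.61 and 0.28 in HCT116 and at 0.14 and 0.18 in A549, with changes of 0.89 ± 0.21 and 0.040 ± 0.21. The third probe (hg19 chr2:111878705-111878764) had changes of 0.48 ± 0.21 and 0.11 ± 0.20. The changes of all 3 probes were positive in both lines and larger in HCT116. In A549, those of both variant 9 probes lay within their spot error. Both variant 9 probes lay in areas of stray signal on HCT116 miR-891b (22.7% and 13.9% of nearby dim spots), while the variant 1 probe did not (0.532%). The variant 1 change uses neither of those probes.

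BID, the BH3-only protein that caspase 8 cleaves to carry a death receptor signal to mitochondria, was read by a pair of neighbouring probes that gave nearly the same values. The first was at 5.27 and 5.46 in HCT116 and at 4.86 and 4.01 in A549. Its change was 0.18 ± 0.20 in HCT116 and -0.85 ± 0.20 in A549, which corresponds to a 1.81-fold lower signal. The second (hg19 chr22:18218265-18218324) gave 0.074 ± 0.20 and -0.82 ± 0.20, and its spot lay in an area of stray signal on HCT116 miR-891b (10.4%). The A549 miR-891b array was the lowest of the 4 by both probes. In A549, 13.6% of measured genes differed by at least as much as the first probe.

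BIK, a BH3-only protein of the endoplasmic reticulum, was at 3.99 and 4.19 in HCT116 and at -0.99 and -1.25 in A549. In intensity, it gave 874 and 1042 in HCT116 against 37.7 and 31.2 in A549. Its changes with miR-891b were 0.20 ± 0.20 and -0.26 ± 0.22, close to their spot errors, while the gap between the lines exceeded that of every other member.

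Across the 10 members, 8 of the HCT116 changes were positive, with a median of 0.19, where all 19105 measured genes had a median of -0.041 and 44.5% positive changes. In A549, 6 were positive with a median of 0.32, against -0.059 and 44.4% for 21335 genes. Past 1.5-fold in either direction were 2 members in HCT116 (PMAIP1 and BCL2L11), where the background was 9.56%. In A549 there were 4 (BCL2L1, BAK1, BBC3 and BID) with a background of 26.4%. The counts by role were small. Among the positive HCT116 changes, those of BAX, MCL1, BID and BIK lay within the spot error, as did the positive change of BCL2 in A549. The HCT116 change of BAX counts as positive at 0.027, and it turned negative under some settings. The BCL2L1 spot lay in an area of stray signal on HCT116 miR-891b. Of the 3 guardians 2 had positive changes in each line, of the 2 effectors 2 did in HCT116 and 1 in A549, and of the 5 BH3-only genes 4 did in HCT116 and 3 in A549.

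The changes in the 2 lines were set side by side, since the lines are the only repeat of the transfection. Opposite signs were seen for 6 of 10 members (BCL2, BCL2L1, BAX, BBC3, BID and BIK), and for 45.1% of the 18063 genes measured on all 4 arrays. Of these members, BAX, BID and BIK had an HCT116 change within the spot error, and BCL2 had both changes within it. The HCT116 sign of BCL2 and of BAX also depended on the setting. The A549 change minus the HCT116 change was 1.21 for BBC3, -1.14 for BCL2L1, -1.10 for PMAIP1 and -1.04 for BID, so 4 of 10 members differed by at least 2-fold between the lines, against 11.2% of all genes. With normexp and quantile normalization, 1 member (BBC3, 1.16) was that far apart, against 4.18% of all genes, and BCL2L1 (-0.87), PMAIP1 (-0.997) and BID (-0.91) were not. Under the other settings 3 or 4 members were. The difference itself could not be tested, since an interaction would leave no residual degree of freedom.

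**Figure D3:**
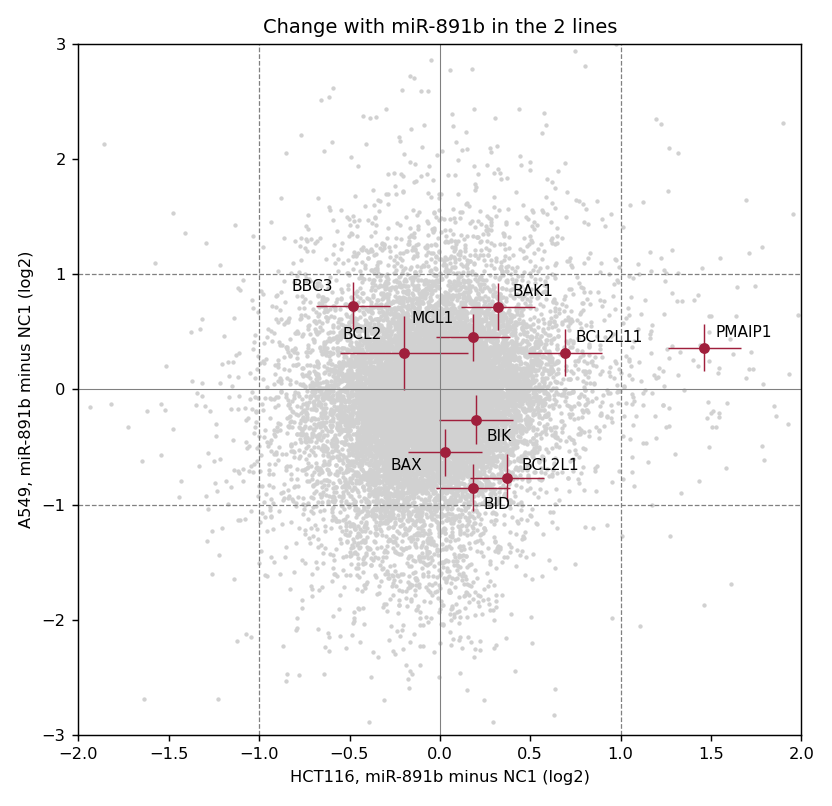
Change with miR-891b (log2, miR-891b minus NC1) in HCT116 (horizontal axis) and A549 (vertical axis) for the 10 members, by the probe with the highest mean level, with the scanner software's error as bars. Grey points are the other genes among 18063 measured on all 4 arrays, 38 of which lie outside the axes, and dashed lines mark 2-fold. PMAIP1 (1.46, 0.36) is the only member beyond a dashed line.

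With limma, additive effects of line and of miR-891b were fitted to 22712 genes over the 4 arrays, which left 1 residual degree of freedom. Its error comes from how far the 4 arrays depart from additive effects, not from separate cultures. For miR-891b, 0 genes (0%) had an adjusted p under 0.05 in either direction, and 1214 had an unadjusted p under 0.05, none of them a member by the probe that represents its gene. By those probes PMAIP1 had the largest miR-891b estimate of the members, 0.91 with an SE of 0.35 and a limma adjusted p of 0.79. Next came BAK1 at 0.52 (SE 0.25) and BCL2L11 at 0.50 (SE 0.25), both with a limma adjusted p of 0.79. When all 29650 probes were fitted, 0 passed for miR-891b and 1608 had an unadjusted p under 0.05. Of the members' 15 probes, 1 was among those, the dim BCL2 variant alpha probe, with an estimate of 1.42 (SE 0.30, limma unadjusted p = 0.0067, adjusted p = 0.80). That probe was not well above background on A549 NC1, and 1 of 15 is close to the share among all probes (1608 of 29650).

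The line term of the same fit compares A549 with HCT116. Each line had its own slide and scan, so the term holds any slide difference as well. Of the 10 members 4 passed, each with a negative estimate, that is lower in A549. BIK was lower in A549 by an estimate of -5.21 (SE 0.26, limma adjusted p = 0.0011), a 37.0-fold difference. PMAIP1 had -2.06 (SE 0.35, limma adjusted p = 0.020), BBC3 -1.82 (SE 0.37, limma adjusted p = 0.031) and BAK1 -1.23 (SE 0.25, limma adjusted p = 0.030). Among all genes, 16.4% were lower in A549 at this threshold, 15.5% were higher and 31.9% passed in either direction. None of the 3 guardians passed. Of the 5 BH3-only genes 3 did, and of the 2 effectors 1 did. BID (-0.93), BCL2L1 (-0.77) and BAX (-0.67) had limma adjusted p-values of 0.11, 0.18 and 0.13. MCL1 had a positive estimate, 0.14 with an SE of 0.24.

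The line term averages the differences with NC1 and with miR-891b. The sizes given here describe the genes that passed it and are no separate check. On the NC1 arrays the A549 minus HCT116 difference was -4.98 for BIK, -2.42 for BBC3, -1.51 for PMAIP1 and -1.43 for BAK1. On the miR-891b arrays it was -5.44, -1.21, -2.61 and -1.03. BBC3 was thus 5.36-fold higher in HCT116 with NC1 and 2.32-fold with miR-891b, and PMAIP1 2.85-fold and 6.11-fold. Under normexp background correction with quantile normalization, BBC3 (-1.54, limma adjusted p = 0.075) and PMAIP1 (-1.73, limma adjusted p = 0.052) no longer passed. Over all the settings tried, the limma adjusted p of BBC3 ran from 0.0067 to 0.075 and that of PMAIP1 from 0.0026 to 0.052, while BIK and BAK1 passed in each.

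**Figure D4:**
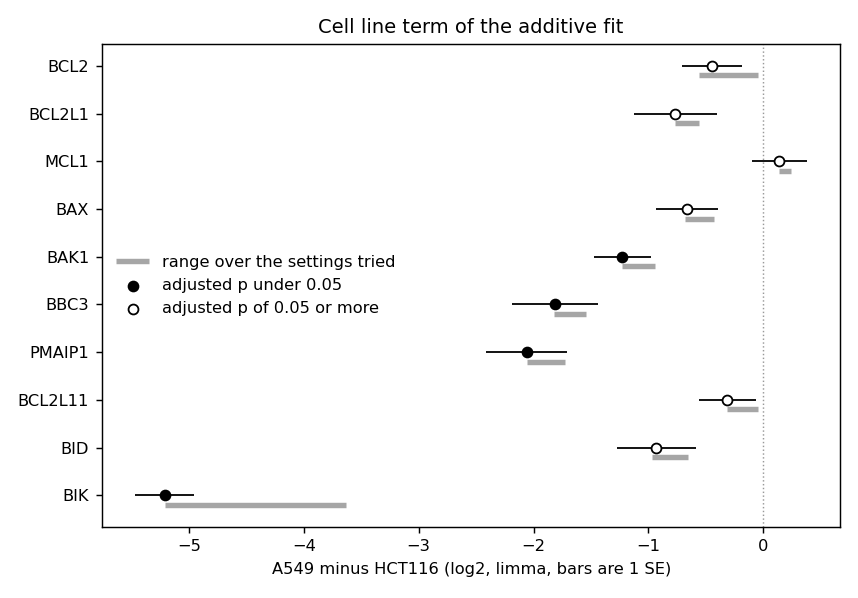
Cell line term of the additive limma fit (A549 minus HCT116, log2, horizontal axis) for the 10 members, with bars of 1 SE. Filled circles have an adjusted p under 0.05 and grey bars give the range of the estimate over the settings tried, which for BIK reaches -3.63.

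Genes that act beside, upstream and downstream of these members were read from 6 lists with 69 genes. For miR-891b, none of them passed in the limma fit. Of 13 other BCL2 family genes, 10 were measured in each line, and no measured gene was past 2-fold in either line. BCL2L12 had the largest change among them, -0.89 in A549. BMF and BCL2L10 fell outside that count, as they were well above background on only part of the arrays, and were named after their values were seen. BMF, a BH3-only gene linked to the cytoskeleton, was well above background on HCT116 NC1 and A549 miR-891b only. Its signals there were 1.36-fold and 3.18-fold above the dimmest signal well above background on the other array of the line. BCL2L10, a guardian best known from oocytes, was well above background on A549 miR-891b only, 3.12-fold by the same measure. These folds are no lower bounds of a change. In the line term, BOK (-2.52) and HRK (-3.90) were lower in A549 and BCL2A1 (2.20) was higher, with limma adjusted p-values of 0.0043, 0.0017 and 0.0058. BOK is an effector-like protein, HRK a BH3-only protein and BCL2A1 a guardian.

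Downstream, 14 genes of caspase activation had medians of 0.13 in HCT116 and -0.15 in A549. BIRC3, an inhibitor of apoptosis that is a target of NF-kappaB, was higher by 1.14 in HCT116, from 0.15 to 1.29. Its spot lay in an area of stray signal on HCT116 miR-891b (24.8% of nearby dim spots), whose part in the value was not tested. BIRC5 (survivin), which also serves cell division, was lower by a change of -1.49 in A549, from 6.22 to 4.74, and its spot lay in an area of stray signal on at least 1 array. The other 12 genes were within 2-fold in both lines, among them, chosen as the core of the apoptosome pathway, CASP9 (-0.30 and -0.28), APAF1 (-0.25 and -0.23) and CYCS (0.30 and -0.19).

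The death receptor arm, which reaches mitochondria through BID, had no gene past 2-fold. TNFRSF10A, a receptor for TRAIL, had changes of 0.63 and 0.59, and the list's median was 0.17 in each line. Of the 15 regulators of the members, DDIT3 (CHOP), a stress factor known to induce BBC3 and BCL2L11, had changes of -0.61 in HCT116 and 1.56 in A549, and its spot lay in an area of stray signal on HCT116 miR-891b (12.1%). FOXO1 had -0.38 and 0.89. The 8 genes of mitochondrial pores and fission were within 2-fold in both lines, and OPA1 (0.017 and -0.36) had the largest change among them.

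The last list holds 8 genes of the response to DNA damage and stress. Of these, only GDF15 was past 2-fold with miR-891b, at -0.38 in HCT116 and 1.33 in A549, and its spot lay in an area of stray signal on HCT116 miR-891b (14.6%). CDKN1A (p21) had changes of 0.35 and -0.28. In the line term 5 of the 8 were lower in A549 with a limma adjusted p under 0.05 (CDKN1A, GDF15, SESN1, SESN2 and FDXR), and TP53I3 was higher. Among all genes, 16.4% were lower and 15.5% higher. The other lists did not lean that way. For caspase activation, 1 gene was lower and 2 were higher. For the death receptor arm and for the regulators, 2 were lower and 2 higher in each, and no gene of pores and fission passed. The CDKN1A estimate was -2.25 with a limma adjusted p of 0.0087. PSAT1, for reference, had changes of -0.81 in HCT116 and -1.58 in A549.

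**Figure D5:**
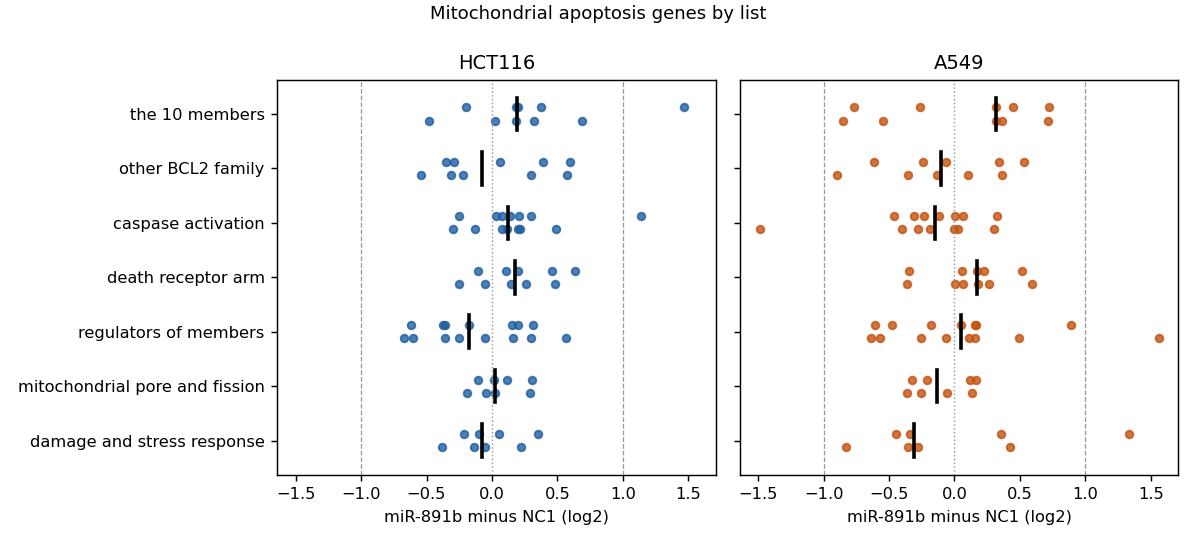
Change with miR-891b (log2, horizontal axis) in HCT116 and A549 for the 10 members and the 6 lists of related genes (rows). Each point is a gene well above background on both arrays of the line, black bars are medians, and dashed lines mark 2-fold. The median of the members is 0.19 in HCT116 and 0.32 in A549, and most other genes lie within 2-fold.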

How the data were processed

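RNA (100 ng) was labelled with Cy3 and hybridised to Agilent 1-colour arrays, per the labels' protocols. Per the file headers, Feature Extraction 11.5.1.1 ran with spatial and multiplicative detrending, and the deposited scanner values are intensity on a linear scale. The deposited table of log2 values, whose making is not stated, differed from the values here by a median of at most 0.0069 per array and served as an alternative.

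After spots marked as outliers were dropped, log2 processed signals were averaged per probe and set relative to each array's 75th percentile over gene probes. Of several probes per gene, the one with the highest mean was used. Changes were counted at 2-fold among genes well above background on both arrays of a line. The additive fit used limma 3.58.1 in R 4.3.3 (lmFit, eBayes, Benjamini-Hochberg over all genes well above background on at least 2 arrays). It was run on simulated data with exactly additive effects and independent noise. That run does not cover lines that respond differently to miR-891b. The rest was done with numpy 2.4.6 and pandas 2.3.3 under Python 3.11.15. A spot was placed in an area of stray signal where, within 10 rows and 10 columns of it, at least 10% of spots dim on other arrays were well above background. Some items are not reported here. Nothing in the labels says whether groups came from separate cultures.

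Members and lists were chosen with earlier results of these data known. The text names all members and, from each list, every gene past 2-fold or else the one with the largest change. Other list genes that passed in the line term, and BMF, BCL2L10, FOXO1, CDKN1A and the caspase examples, were chosen after their values were seen. All 10 member symbols and 68 of 69 list symbols are current in RefSeq (GRCh38.p14). The alternatives were quantile normalization with and without normexp (offset 50), median scaling, the deposited log2 values, outlier spots kept, the mean over probes, stray areas left out, no filter on dim probes, and 1.5-fold. A fit over all probes was added after seeing the data.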

Additional observations from a re-analysis of the deposited data

Results flagged for a closer look

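Of the 10 members, 6 had changes of opposite sign in the lines, against 45.1% of the 18063 genes measured on all 4 arrays. None of these differences was tested, because every group had 1 array. The A549 change minus the HCT116 change was 1.21 for BBC3, -1.14 for BCL2L1, -1.04 for BID, -0.57 for BAX, 0.51 for BCL2 and -0.46 for BIK. For BAX, BID and BIK the HCT116 change, and for BCL2 both changes, lay within the spot error.

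Negative control spots carry no gene and enter no comparison. Of the 308 on each array, 11 exceeded background clearly on HCT116 miR-891b and 2 on A549 miR-891b, against 0 on either NC1 array.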

How the results depend on the processing

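The labels give no replicate numbers; the additive limma fit, with cell line as a term, is the paired comparison of miR-891b with NC1. Of the counts of genes past 2-fold, normexp with quantile normalization gave 12 lower and 27 higher in HCT116 (161 and 221 in the values reported) and 429 lower and 334 higher in A549 (1188 and 854). No filter on dim probes gave 1434 and 2788 in HCT116 and 3080 and 2933 in A549, and a 1.5-fold threshold gave 1080 and 747 in HCT116 and 3259 and 2368 in A549. Leaving out areas of stray signal gave 140 higher in HCT116. Genes that were higher made up 57.9% of the HCT116 calls, against 69.2% with normexp and quantile normalization, 50% with quantile normalization alone, 49.1% without stray areas and 40.9% at 1.5-fold, so the excess of higher calls was not kept under the last 3. At 1.5-fold, 2 members were higher in HCT116, and 2 were higher and 2 lower in A549. Members at least 2-fold apart between the lines, 4 in the values reported, numbered 1 with normexp and quantile normalization, a count added after seeing the data. The mean over probes brought BCL2 to 0.42 in HCT116 and 1.05 in A549, so that 1 member was past 2-fold higher in A549. That A549 value takes in the variant alpha probe, which was not well above background with NC1. The mean over probes turned the HCT116 change of BCL2 positive and that of BAX negative, and BAX was also negative there without stray areas. All other member changes kept their sign under the settings tried. BCL2L1 in A549 moved to -0.51 with normexp. In limma, 6 genes passed for miR-891b once dim probes were kept, none of them a member. Fitted over all probes, a choice made after seeing the data, the line term passed for 4 of the members' 15 probes, those of BAK1, BBC3, PMAIP1 and BIK, against 33.3% of all probes. The single-probe genes BCL2L1 and MCL1 have no value without stray areas. With 1 array per group, no replicate could be left out and the spread between cultures is unknown.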
